A study of Mus musculus with 57 samples.

Results

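Control cells from the brain of Sod1G86R mice were compared between late and early ages, with the libraries chosen by genotype, cell type and age as the labels give them. The late libraries were those of 90 and 105 days (8 libraries, 4 at each age) and the early ones those of 30 and 60 days (6 libraries, 3 at each age), which makes 14 of the 57 libraries of the study. The days are a reading of plain numbers in the library titles. All 14 came from mice that carry Sod1G86R, a transgene for a mutant form of the mouse enzyme superoxide dismutase 1 under its own promoter, and no treatment is named. The same ages were measured in Sod1G86R corticospinal neurons (CSN; 6 late and 7 early libraries) and in wild-type control cells (8 late libraries, 4 of each age, and 6 early ones, 4 of 30 and 2 of 60 days). The labels say nothing more of what the control cells are, how they were gated or from how many cells a library was made.

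Sod1G86R mice are a model of amyotrophic lateral sclerosis (ALS), a disease in which the upper motor neurons of the cortex and the lower motor neurons of the brainstem and spinal cord degenerate. Mutant superoxide dismutase 1 is made in every cell and harms by a gained toxic property, not by loss of the enzyme. Neurons do not degenerate alone in such models: microglia and astrocytes become reactive, oligodendrocytes lose part of their support of axons, and interferon and complement genes are often induced. A control population sampled beside CSN can show changes with age in other cells. The labels do not say whether it is free of the vulnerable neurons.

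RNA was measured as full-length cDNA sequencing, in normalised reads per gene as the authors deposited them, and levels below are in that unit. Fold changes are log2 differences of late minus early on the scale of log2(value + 34.6), which understates the change of genes near that level. Recovered reads were 36.3 ± 9.17 M per late library and 31.4 ± 5.43 M per early one (SD, n = 8 and 6). Markers of neurons, microglia and astrocytes were present in all of these libraries, as were the oligodendrocyte markers given below. The neuronal gene Snap25 ranged over 93029 to 478368 (median 231298) in late and 35259 to 223678 (median 183063) in early libraries. The microglial gene Tmem119 ranged over 559.5 to 5176 (median 1785) in late and 465 to 4631 (median 2101) in early libraries, and the astrocyte gene Aqp4 over 588 to 6987 (median 1773) in late and 392 to 2659 (median 2042) in early ones. The control cells are therefore described as a mixture, in which fewer cells of a type and less RNA per cell cannot be told apart. Sod1, the gene that carries the mutation and is present in extra copies in this line, averaged 107821 ± 34386 in late and 80151 ± 22959 in early Sod1G86R libraries, against 3502 ± 436 in late and 2373 ± 694 in early wild-type ones. Its late minus early difference was 0.39 ± 0.24 (SE), which did not pass the test (limma, adjusted p = 0.688).

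No gene passed the test between late and early ages in Sod1G86R control cells. Of 20944 genes tested with limma, 0 (0%) had a Benjamini-Hochberg adjusted p under 0.05 and the lowest adjusted p was 0.0812. At an unadjusted p under 0.05 there were 1691 genes (8.07%), of which 817 (3.9%) were higher and 874 (4.17%) lower at late ages. The quasi-likelihood test of edgeR on recovered reads called 0 genes and DESeq2 called 52, 13 higher and 39 lower. The median difference over all genes was -0.02. The groups separated without overlap for few genes: every late library lay above every early one for 6 genes (0.0286%) and below for 3 (0.0143%). The 6 were Hnrnpa1 and Rps6, described below, and Bcas2, Pfdn1, Katna1 and the predicted gene Gm9830. Bcas2, a gene of the splicing machinery, had 5229 to 9196 in late and 3099 to 4799 in early libraries. Pfdn1, a subunit of the prefoldin chaperone, had 4279 to 6131 in late and 1918 to 4198 in early libraries. Katna1, a subunit of the microtubule-severing enzyme katanin, had 829.33 to 1896 in late and 452 to 829.02 in early libraries. The closest libraries of the groups were furthest apart for Bcas2, near each other for Pfdn1 and almost equal for Katna1. The 3 below were the predicted genes Gm4221, Gm42989 and Gm43130, of which the highest library of any had 219.7 normalised reads. All 9 were singled out after their values were seen. Hnrnpa1 and Rps6 are described below for their small p in this same comparison, so their separation is not a separate result. The labels do not say that libraries came from separate animals, so p-values measure the spread between these libraries.

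The call of no gene rested on which libraries entered the fit. Leaving out replicate 7 of 60 days gave 14 genes, leaving out replicates 2, 3 or 4 of 30 days gave 2, 3 and 2, and leaving out replicate 13 of 105 days gave 1. With all 57 libraries in 1 fit, which adds the CSN to the estimate of spread, 43 genes passed, and with the 60-day libraries left out 8 passed.

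The genes with the smallest p in each direction, among those with a mean of at least 346 and a gene name, were Polr3e, Phactr3 and Birc2 on the lower side and Hnrnpa1, Il33 and Lxn on the higher side. Polr3e encodes a subunit of RNA polymerase III, which makes transfer RNAs and other small RNAs. It lies on chromosome 7 (GRCm38, 120917744 to 120947432, plus strand). It had 3375, 9022 and 5865 normalised reads at 30 days, 4232, 7775 and 1693 at 60 days, 1188, 516, 1115 and 940.5 at 90 days and 700.1, 2345, 1395 and 2594 at 105 days. All 8 late libraries were below the median of the early ones, and only replicate 7 of 60 days among the early libraries fell within the late range. The difference was -1.94 ± 0.35 (SE), with a 95% interval of -2.65 to -1.22 (limma, adjusted p = 0.0812). It passed with DESeq2, with array weights, with all 57 libraries in the fit, without the 60-day libraries and without replicate 2 of 30 days or replicate 7 of 60 days. With the library number as a covariate the difference was -1.44 and did not pass (limma, adjusted p = 0.573). That number, given in the labels, largely followed age. Apart from replicate 7 of 60 days and replicate 3 of 90 days, every early library had a lower number than every late one. Over all genes, 1216 had an unadjusted p under 0.05 with this covariate, against 1691 without it (limma). The part of library order in the late minus early differences was not tested further.

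Phactr3 encodes a regulator of protein phosphatase 1 and actin and lies on chromosome 2 (178118975 to 178338492, plus strand). It had 5154, 17047 and 3263 normalised reads at 30 days, 2214, 4361 and 1635 at 60 days, 1877, 1125, 1300.2 and 1511 at 90 days and 1012, 2699, 1728 and 1662 at 105 days. The value of replicate 3 at 30 days stood far above all others, and replicates 3 and 7 of 60 days were within the late range. Its difference was -1.38 ± 0.29 (SE) (limma, adjusted p = 0.139).

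Birc2, on chromosome 9 (7818227 to 7837064, minus strand), encodes the ubiquitin ligase cIAP1, which curbs cell death and controls NF-kB signalling. It had 4174, 6794 and 5593 normalised reads at 30 days, 16143, 2228 and 4849.8 at 60 days, 1288, 2292, 1826 and 2614 at 90 days and 1182, 2389, 1362 and 2082 at 105 days. Replicate 5 of 60 days was the only early library within the late range, and replicate 3 of that age was the highest of all. Its difference was -1.59 ± 0.36 (SE) (limma, adjusted p = 0.291).

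Hnrnpa1 encodes an RNA-binding protein of splicing and stress granules, and mutations in the human gene cause ALS. It lies on chromosome 15 (103240432 to 103246692, plus strand) and has processed copies elsewhere in the genome that can share reads with it, so its level is uncertain. It had 1460.1, 1227 and 1173 normalised reads at 30 days, 1819, 1805 and 2261 at 60 days, 2516, 4171, 2528 and 2555 at 90 days and 2592, 2692, 2486 and 3155 at 105 days. The 8 late libraries were all above the 6 early ones, and the 3 libraries of 60 days lay between those of 30 days and the late ones. The difference was 0.81 ± 0.17 (SE), with a 95% interval of 0.45 to 1.16 (limma, adjusted p = 0.140).

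Il33, on chromosome 19 (29925114 to 29960718, plus strand), encodes a nuclear alarmin cytokine that glia of the brain make. It had 551, 396 and 839 normalised reads at 30 days, 5035, 2595 and 1381 at 60 days, 2390.4, 4771, 2766 and 2637 at 90 days and 2328, 7171, 3121 and 4175 at 105 days. The 30-day libraries were all below every other library, while the 60-day ones reached into the late range. The difference was 1.44 ± 0.37 (SE) (limma, adjusted p = 0.474). Without the 60-day libraries the difference was 2.51 and passed.

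Lxn encodes latexin, an inhibitor of carboxypeptidases, and lies on chromosome 3 (67457998 to 67463926, minus strand), where it overlaps Gfm1 on the other strand. It had 763, 1204 and 954 normalised reads at 30 days, 4405, 1969.9 and 1628 at 60 days, 2556, 6730.2, 1999.7 and 3436 at 90 days and 4892, 7388, 4764 and 4399 at 105 days. The 4 libraries of 105 days were close together apart from replicate 12, and the difference over both ages was 1.43 ± 0.37 (SE) (limma, adjusted p = 0.474). Strand is not marked by this kit, and reads in the stretch shared by Lxn and Gfm1 cannot be told apart.

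**Figure D1:**
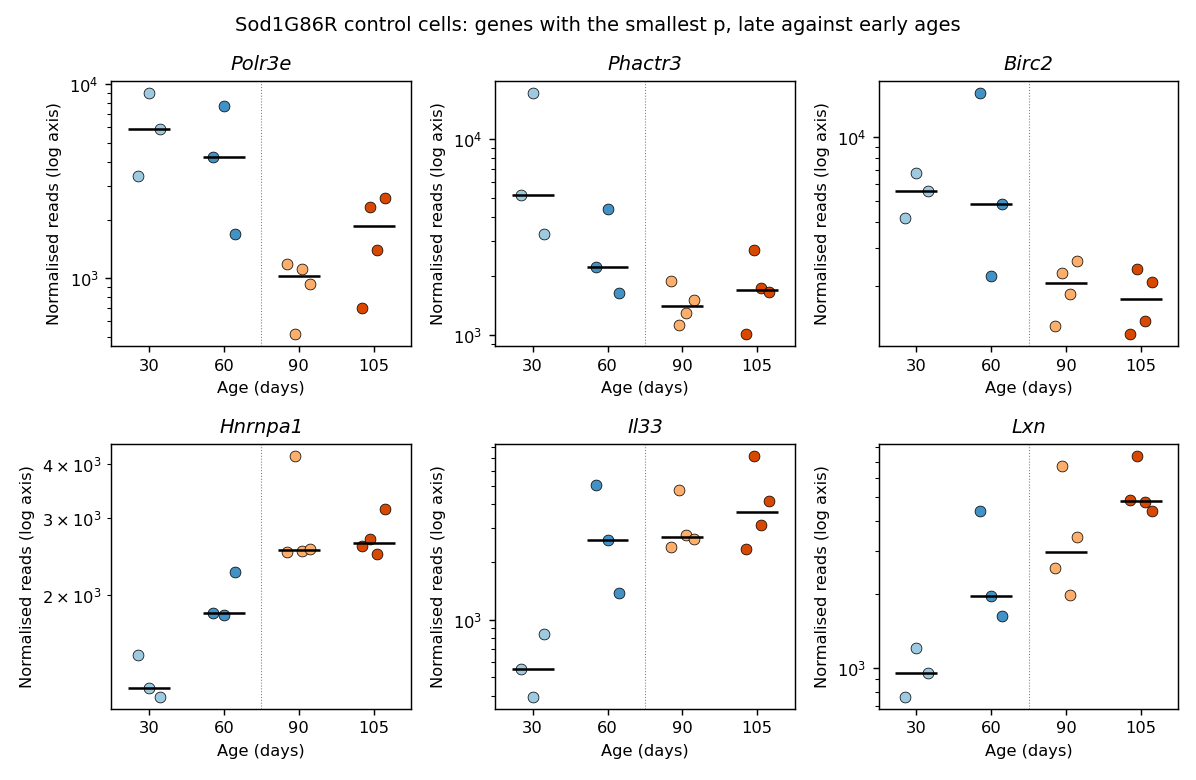
Normalised reads per library (log axis) against age in days for the 6 genes with the smallest p in Sod1G86R control cells. Each point is 1 library, black bars are medians of an age and the dotted line parts early from late ages. For Hnrnpa1 the lowest late library, at 2486, stood above the highest early one, at 2261, while in the other 5 panels at least 1 early library lay within the late range.

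Genes were then read by lists of cell type markers and pathways, each described by how many members lay above or below 0 and by its median difference, beside the median of -0.02 over all genes. Over all genes 47.7% lay above 0, and at an unadjusted p under 0.05 3.9% were higher and 4.17% lower. No member of any of the 39 lists passed the test. The lists share libraries, so members of a list are not independent of each other.

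Oligodendrocyte markers were the lowest list. All 12 measured members lay below 0, with differences of -1.59 to -0.36 and a median of -1.14, and 8 of them had an unadjusted p under 0.05. Mobp, a gene of compact myelin, had 25847, 30616 and 40473 normalised reads at 30 days, 23751, 58215 and 8015 at 60 days, 9183, 9470.5, 8323 and 6699 at 90 days and 5617, 10528, 7646 and 22384 at 105 days. Replicate 7 of 60 days was the only early library near the late level, and replicate 9 of 105 days the only late library near the early level. The difference of Mobp was -1.54 ± 0.37 (SE) (limma, adjusted p = 0.396). Without the 60-day libraries 1 of 12 members lay above 0 and the median of the list was -1.28.

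Mog, which encodes a glycoprotein of the outer myelin surface, had 8598 to 36471 normalised reads (median 17075) in late libraries and 23646 to 88547 (median 40019.6) in early ones. Opalin, a membrane protein of mature oligodendrocytes, had 4739 to 12175 normalised reads (median 9878) in late libraries and 5973 to 31212 (median 21766) in early ones. For both genes the groups overlapped, and 8 of 8 late libraries lay below the early median. Their differences were -1.39 and -1.12 (limma, adjusted p = 0.474 and 0.496).

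Averaged over the 12 markers, the log2 level was 13.2 ± 0.713 in late and 14.3 ± 0.885 in early libraries (SD, n = 8 and 6). A two-sided exact permutation test gave p = 0.0320, and 0.288 after adjustment over 18 library measures. The summed level of the list ranged from 175799 to 1026540 (median 343453) in late and from 341470 to 1471450 (median 922396) in early libraries, and no member was at 0 in any of them. Of the markers of precursor cells, which give rise to oligodendrocytes, 3 of 8 lay above 0, with a median of -0.08.

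Endothelial and mural cell markers were also low as a list. All 14 lay below 0, with a median of -0.73, and 5 had an unadjusted p under 0.05. When the 60-day libraries were left out 2 of 14 lay above 0 and the median was -0.91. Ly6c1, a surface protein of brain endothelium, had 932 to 6603 normalised reads (median 3219.8) in late libraries and 2413 to 9853 (median 6182) in early ones. Slco1a4, an organic anion transporter of the blood-brain barrier, had 302 to 4647 normalised reads (median 3210.2) in late libraries and 2149 to 11596 (median 5084) in early ones. Both ranges overlapped widely, with 7 and 8 of 8 late libraries below the early median. Esam and Cldn5, which encode proteins of endothelial junctions, differed by -1.22 and -1.15, and the differences of all these members had adjusted p between 0.515 and 0.586 with limma. The mean log2 level was 9.07 ± 0.821 in late and 9.83 ± 0.747 in early libraries (exact permutation p = 0.101, adjusted p = 0.364).

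Interferon and antigen presentation genes lay mostly below 0. Of 27 measured, 26 were below 0 and 1 above, with a median of -0.54, and 7 had an unadjusted p under 0.05. Ifitm3, which blocks the entry of viruses at membranes, had 4966, 1885 and 4536 normalised reads at 30 days, 2255, 2684 and 559.9 at 60 days, 536, 847, 573 and 571 at 90 days and 962, 925, 2055 and 1534 at 105 days. Its early libraries were all above 1800 except replicate 7 of 60 days, whose value was within the range of the 90-day libraries. The difference was -1.32 ± 0.36 (SE) (limma, adjusted p = 0.493).

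Ifit1, which binds foreign RNA and halts its translation, had 8.96 to 491 normalised reads (median 191) in late libraries and 291 to 2464 (median 690.2) in early ones, and its difference was -1.98 (limma, adjusted p = 0.496). Irf7, the transcription factor that amplifies interferon production, had 1352, 373 and 1922 normalised reads at 30 days, 12.9, 286 and 4.11 at 60 days, 4.98, 4.87, 8.61 and 80.3 at 90 days and 8.38, 146, 189.6 and 839 at 105 days. The 3 libraries of 30 days were high, those of 60 and 90 days low except for replicate 5 of 60 days, and those of 105 days spread from the low to the high end. Ifit3, a partner of Ifit1, differed by -1.08 (limma, adjusted p = 0.523). Without the 60-day libraries 0 of 27 members lay above 0 and the median was -0.89.

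Complement and inflammation genes lay below 0 in all 23 members, with a median of -0.41 and 5 with an unadjusted p under 0.05. When the 60-day libraries were left out 2 of 22 measured lay above 0 and the median was -0.56. Lcn2, a secreted iron-siderophore carrier of reactive astrocytes, had 98.04, 44.0 and 101.9 normalised reads at 30 days, 7.71, 875 and 2.05 at 60 days, 0, 7.79, 2.87 and 1.27 at 90 days and 0, 0, 7.47 and 0 at 105 days. The late libraries were all at or near 0, and 4 of the 6 early ones were well above them. Osmr, the receptor of oncostatin M, had 14.0 to 199.9 normalised reads (median 93.2) in late libraries and 164 to 772 (median 269.9) in early ones, and replicates 3 and 4 of 30 days lay within the late range. Serping1, the inhibitor of complement C1, had 0.957 to 980 normalised reads (median 15.2) in late libraries and 16.7 to 879 (median 547) in early ones and differed by -1.86, and Cxcl10, a chemokine induced by interferon, differed by -1.48. Adjusted p of these 4 genes ran from 0.493 to 0.612 with limma. With glial markers as a covariate the median was -0.18 for complement and -0.39 for interferon genes. It was -1.05 and -0.76 with the library number of the labels as a covariate, and -0.85 and -0.76 with a covariate for the difference between long and short transcripts. Endothelial markers lay on the same side, and their part in these values was not tested.

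Microglial markers stood near the level of all genes, with 6 of 14 above 0, a median of -0.04 and differences of -0.49 to 0.47. Their mean log2 level was 12.1 ± 0.748 in late and 12.1 ± 0.817 in early libraries (exact permutation p = 0.965). Genes of disease-associated microglia, the state that surrounds degenerating neurons, had a median of -0.10, with 5 of 13 above 0. Clec7a, the receptor dectin-1 and a marker of that state, had 1021, 61.2 and 548 normalised reads at 30 days, 20.6, 12.8 and 17.5 at 60 days, 15.9, 5.84, 11.5 and 172 at 90 days and 29.9, 11.7, 19.6 and 12.0 at 105 days. It was highest in the 3 libraries of 30 days and in replicate 8 of 90 days, and under 30 normalised reads in the other 10. Its difference was -1.26 ± 0.38 (SE) (limma, adjusted p = 0.500). The other members with the smallest p were Cd9 (-0.62), Lyz2 (-0.99) and Axl (0.51), with adjusted p of 0.667, 0.846 and 0.874.

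Astrocyte markers all lay above 0 by little, 12 of 12 with a median of 0.27 and 1 with an unadjusted p under 0.05. When the 60-day libraries were left out 11 of 12 lay above 0 and the median was 0.36. Sox9, a transcription factor of astrocytes, had 303 to 1545 normalised reads (median 643) in late libraries and 138.8 to 1179 (median 257) in early ones, and its difference was 0.98 ± 0.45 (SE) (limma, adjusted p = 0.589). Slc1a2, the main glutamate transporter, differed by 0.32, Aldh1l1, a folate enzyme used as a marker, by 0.37, and Slc4a4, a bicarbonate transporter, by 0.29. Gfap, the filament protein of reactive astrocytes, had 3210.5, 249.7 and 12.0 normalised reads at 30 days, 12.9, 0 and 67.8 at 60 days, 8.96, 10.7, 38.3 and 309.7 at 90 days and 21.5, 153.3, 726 and 331 at 105 days. The libraries of 30 days alone spanned nearly the whole range, and the difference was 0.01 with a 95% interval of -1.74 to 1.76.

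**Figure D2:**
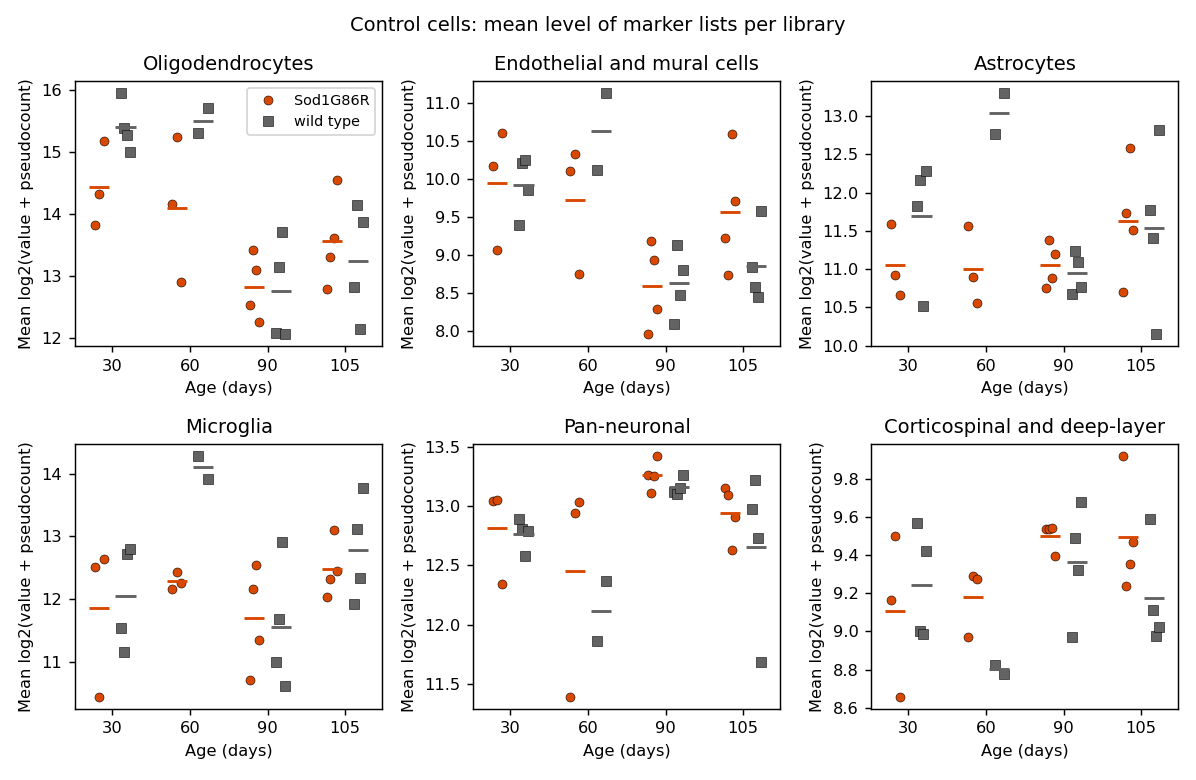
Mean log2(value + 34.6) of 6 marker lists per library against age in days, with Sod1G86R control cells as circles on the left and wild-type control cells as squares on the right of each age, and bars for group means. Oligodendrocyte markers averaged 13.2 in late and 14.3 in early Sod1G86R libraries, against 12.999 in late and 15.4 in early wild-type ones.

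Pan-neuronal genes lay above 0 in 15 of 15, with a median of 0.38 and 5 at an unadjusted p under 0.05. Gap43, a protein of growth cones and presynaptic terminals that is used as a marker of axon growth, had 5288, 4853 and 2928 normalised reads at 30 days, 1223, 4819.7 and 8353 at 60 days, 8524, 10233, 9477 and 17248 at 90 days and 7930.4, 10634, 6047 and 5802 at 105 days. All 8 late libraries were above the early median, and replicate 7 of 60 days was the only early library above the lowest late ones. The difference was 1.18 ± 0.36 (SE) (limma, adjusted p = 0.500), and it passed with all 57 libraries in the fit.

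Uchl1, a neuronal ubiquitin hydrolase, had 6235 to 21597 normalised reads (median 12641) in late libraries and 2286 to 11882 (median 8041) in early ones, and its difference was 0.79. Nefl, the light neurofilament, had 4262 to 8829 normalised reads (median 7335) in late libraries and 2448 to 7236 (median 4404) in early ones and differed by 0.60. Tubb3, a neuronal tubulin, had 3938 to 5827 normalised reads (median 4491) in late libraries and 1241 to 4901 (median 3738) in early ones and differed by 0.62. The late and early ranges overlapped for each, with adjusted p of 0.543, 0.607 and 0.613 (limma). The list had a mean log2 level of 13.1 ± 0.244 in late and 12.6 ± 0.666 in early libraries (exact permutation p = 0.0833, adjusted p = 0.364). Replicate 3 of 60 days was the lowest, at 11.4. When the 60-day libraries were left out 11 of 15 pan-neuronal genes lay above 0 and their median was 0.40.

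Genes of immature neurons and axon growth were mixed, with 12 of 19 above 0 and a median of 0.11. Tmsb10, an actin-binding peptide, and Basp1, a membrane protein of growth cones, differed by 0.86 and 0.73, with 8 of 8 late libraries above the early median for each. Cd24a, a surface protein of young neurons, differed by -1.20. The adjusted p of these 3 were 0.518, 0.518 and 0.588 (limma).

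Markers of corticospinal and other deep-layer neurons lay above 0 in 13 of 14, with a median of 0.20 and 3 at an unadjusted p under 0.05. Fezf2, the transcription factor that specifies subcerebral projection neurons, had 99.0, 465.8 and 97.9 normalised reads at 30 days, 369, 425 and 200.3 at 60 days, 1121, 755, 488 and 113 at 90 days and 996, 849.7, 296 and 502 at 105 days, and its difference was 1.08 ± 0.50 (SE) (limma, adjusted p = 0.593). Pcp4, a calmodulin regulator of deep-layer neurons, had 1291 to 10848 normalised reads (median 4085) in late libraries and 519 to 6898 (median 1487) in early ones and differed by 1.20. Ldb2, a cofactor of LIM-domain factors, had 1018 to 3731 normalised reads (median 1904) in late libraries and 435 to 1743 (median 716) in early ones and differed by 1.17. Parm1, a membrane glycoprotein, differed by -0.35 in the other direction. The mean log2 level of the list was 9.50 ± 0.202 in late and 9.14 ± 0.295 in early libraries (exact permutation p = 0.0160, adjusted p = 0.288). Its members lay above 0 in 10 of 14, with a median of 0.35, when the 60-day libraries were left out. Upper-layer markers had a median of 0.01 and GABAergic markers, with 10 of 12 above 0, one of 0.67. Without the 60-day libraries 4 of the 12 GABAergic markers lay above 0 and their median was -0.12.

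Postsynaptic and glutamate receptor genes had 8 of 22 above 0 and a median of -0.14. Grik1 and Grik2, which encode kainate receptor subunits, differed by -1.17 and -0.50, with 8 of 8 late libraries below the early median for each. The adhesion gene Nlgn3 differed by 0.30. Adjusted p were 0.531, 0.616 and 0.755 (limma).

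Genes of the nuclear part of oxidative phosphorylation, the chain of mitochondrial complexes that makes ATP, lay above 0 in 46 of 46, with a median of 0.52, a range of 0.18 to 0.77 and 26 at an unadjusted p under 0.05. Ndufb10, a subunit of complex I, had 4961, 6169 and 4524 normalised reads at 30 days, 5618, 7408 and 8114 at 60 days, 8663, 11213, 7484 and 12532 at 90 days and 9496, 9122, 7850.5 and 10295 at 105 days. The late libraries were all above the early median, and the lowest 2 of them were under the highest early one, replicate 7 of 60 days. The difference was 0.65 ± 0.21 (SE) (limma, adjusted p = 0.500). Cox5a of complex IV differed by 0.77, Atp5h of the ATP synthase by 0.69 and Ndufa8 of complex I by 0.65, with adjusted p of 0.500, 0.500 and 0.500. The 11 measured subunits encoded by the mitochondrial genome had a median of 0.18 and none with an unadjusted p under 0.05, and the share of reads from that genome was 1.93% ± 0.882 in late and 1.87% ± 0.574 in early libraries (SD, n = 8 and 6; exact permutation p = 0.920).

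Cytosolic ribosomal protein genes lay above 0 in 36 of 36, with a median of 0.45 and 17 at an unadjusted p under 0.05. Rps6, a protein of the small subunit, had 1828, 2454 and 1454 normalised reads at 30 days, 1372, 2523 and 2120.3 at 60 days, 2552, 2976, 2568 and 4126 at 90 days and 2768, 3549, 2551 and 4013 at 105 days. Every late library was above every early one, by 2551 against 2523 at the closest. The difference was 0.68 ± 0.23 (SE) (limma, adjusted p = 0.500). Rpl23 and Rpl8 differed by 0.76 and 0.61, with adjusted p of 0.500 and 0.515. Ribosomal protein genes have processed copies, so their levels are uncertain.

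Both lists hold short transcripts, and short transcripts as a whole lay above 0. Protein-coding genes were cut into 4 groups of like size by transcript length. Of 2459 genes in the shortest group (204 to 1238 bases), 68.8% were above 0 with a median of 0.21, against 49.4% and a median of -0.01 in the longest group (3502 bases and more). Over 9833 protein-coding genes the rank correlation of length with the late minus early difference was -0.20, a description over genes of the same 14 libraries. In wild-type control cells that correlation was 0.12, and the shortest and longest groups had medians of -0.16 and 0.06. Oxidative phosphorylation and ribosomal protein genes had medians of 0.49 and 0.64 there. With the difference between long and short transcripts as a covariate, the median of oxidative phosphorylation genes was 0.35 and that of ribosomal protein genes 0.29. Without the 60-day libraries 44 of 46 and 36 of 36 members of these lists lay above 0, with medians of 0.63 and 0.65. The part of transcript length in these 2 lists was not tested further.

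Proteasome subunit genes, which encode the complex that degrades ubiquitinated proteins, lay above 0 in 29 of 31, with a median of 0.32. Of the 31, 1 was higher at an unadjusted p under 0.05, as were 3.9% of all genes. When the 60-day libraries were left out 24 of 31 lay above 0 and the median was 0.34. Their median was 0.14 with the transcript length covariate and 0.11 with the library number as a covariate. Antioxidant genes had 17 of 26 above 0 and a median of 0.13. Txn1, which encodes thioredoxin, had 3538 to 8425 normalised reads (median 5970) in late libraries and 2289 to 5443 (median 3874) in early ones, and its difference was 0.68 ± 0.24 (SE) (limma, adjusted p = 0.515). Gsta4, a glutathione transferase, differed by 0.89, and the peroxiredoxins Prdx2 and Prdx5 by 0.58 and 0.70, with adjusted p of 0.523, 0.556 and 0.605.

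Genes of the unfolded protein response, which raises the folding capacity of the endoplasmic reticulum, had 14 of 21 above 0 and a median of 0.09. Manf, a secreted factor of that response, had 2288, 2013 and 2748 normalised reads at 30 days, 5697, 9365 and 2928 at 60 days, 6384, 7515, 3448 and 6245 at 90 days and 4036, 9329.5, 6098 and 9278 at 105 days. The 30-day libraries were all below every late library, and replicate 5 of 60 days was the highest of the 14. Its difference was 0.80 ± 0.26 (SE) (limma, adjusted p = 0.500). The chaperone genes Pdia4, Sdf2l1 and Hspa5 differed by 0.81, 0.68 and 0.38, with adjusted p of 0.607, 0.647 and 0.761. Creb3, a transcription factor anchored in the endoplasmic reticulum, had 5033, 4227 and 6267 normalised reads at 30 days, 5112, 7324 and 4797 at 60 days, 5003, 8788, 5318 and 8993 at 90 days and 6153, 4848, 6168 and 8249 at 105 days. Its 4 ages overlapped, with a difference of 0.27 ± 0.22 (SE) and a 95% interval of -0.17 to 0.71 (limma, adjusted p = 0.779). The 13 measured genes of the CREB3 family list had a median of 0.05.

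Genes linked to ALS in humans had 15 of 26 above 0 and a median of 0.06. Beside Hnrnpa1, Chchd10, a protein of mitochondrial cristae, differed by 0.83 (limma, adjusted p = 0.506). Ubqln2, a shuttle of ubiquitinated proteins, had 1514 to 3377 normalised reads (median 2434) in late libraries and 1124 to 2625 (median 1380.1) in early ones. All late libraries were above the early median for Ubqln2 and the ranges overlapped, with a difference of 0.64 (limma, adjusted p = 0.515).

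Glucocorticoid response genes, which stress hormones induce, had 12 of 16 below 0, a median of -0.57 and 6 at an unadjusted p under 0.05. Sgk1, a kinase that glucocorticoids induce and that oligodendrocytes express strongly, had 18085, 40498 and 32453 normalised reads at 30 days, 27484, 59633 and 10719 at 60 days, 10026, 12785, 13818 and 11647 at 90 days and 7370.4, 15591, 13480.2 and 18763 at 105 days. Replicate 2 of 30 days and replicate 7 of 60 days were the only early libraries within the late range. The difference was -1.13 ± 0.33 (SE) (limma, adjusted p = 0.496), and it passed with all 57 libraries in the fit. The sulfotransferase gene Sult1a1 differed by -1.37, the mTOR inhibitor gene Ddit4 by -0.76 and Tsc22d3, which encodes the leucine zipper protein GILZ, by -0.58, with adjusted p of 0.517, 0.554 and 0.581. With glial markers, oligodendrocyte ones included, as a covariate the median of the list was -0.46.

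**Figure D3:**
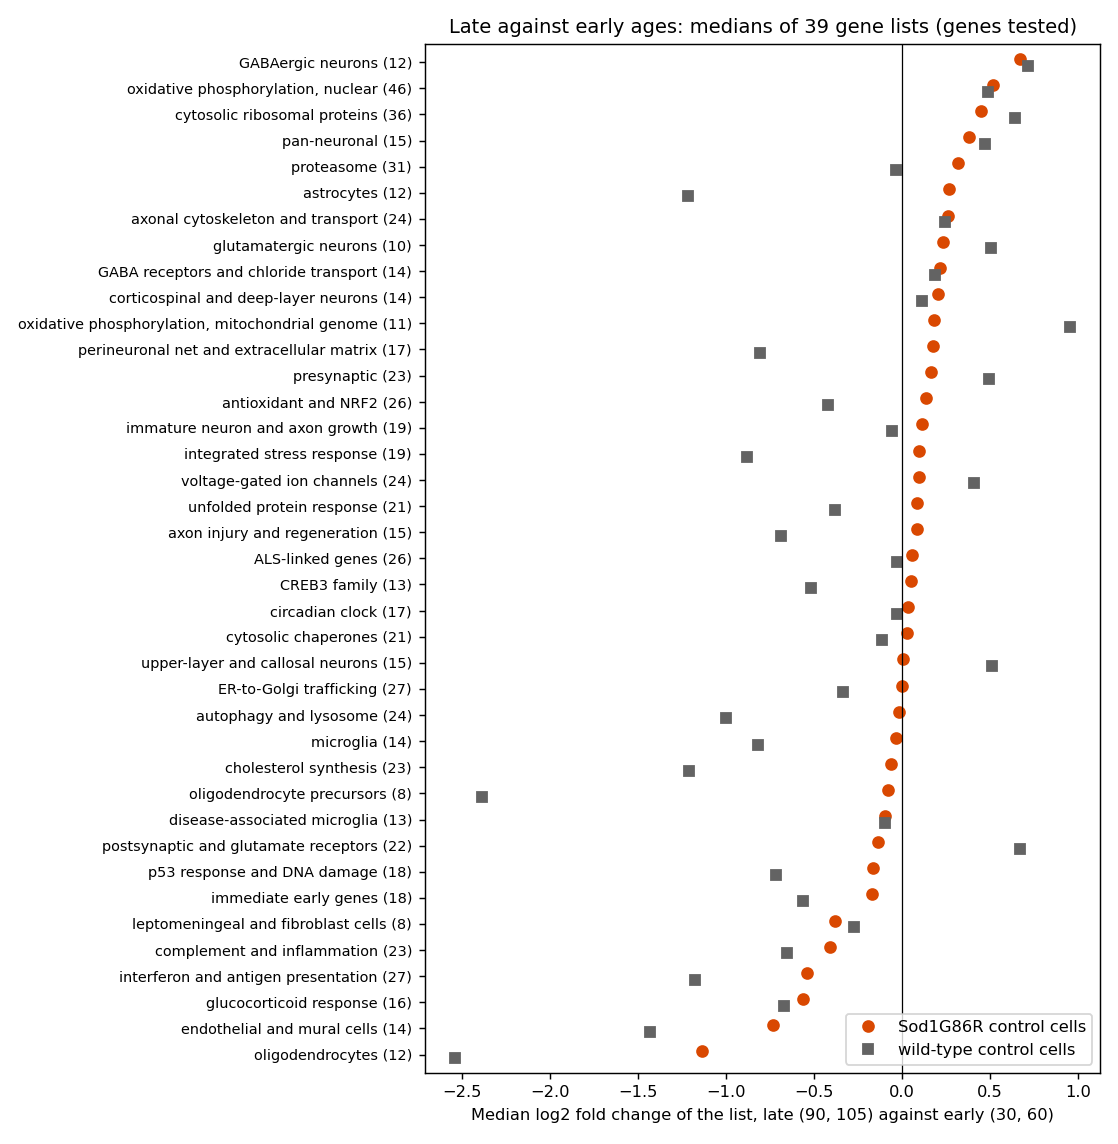
Median log2 fold change of late against early ages for 39 gene lists, with the number of genes tested in parentheses, in Sod1G86R control cells (circles) and wild-type control cells (squares). In Sod1G86R control cells oligodendrocyte markers were lowest, at -1.14, and GABAergic markers highest, at 0.67, a value that was -0.12 without the 60-day libraries.

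Steps between neighbouring ages were tested in the same 28 control-cell libraries. From 30 to 60 days 1 of 20944 genes passed (0.00477%), against 1383 (6.6%) at an unadjusted p under 0.05. It was Npsr1, a receptor of neuropeptide S, which had 3289, 3609 and 1023 normalised reads at 60 days and 91.4, 345 and 217 at 30 days without overlap. Npsr1 rose by 3.35 ± 0.57 (SE) (limma, adjusted p = 0.0450), and at the later ages it had 1348, 814, 1066 and 545 at 90 days and 1709, 1115, 1164 and 912 at 105 days. It did not pass with edgeR, with a pseudocount 4 times as large, without the filter, in a fit of these groups alone or when most single libraries, those of other ages and of wild type included, were left out, and its adjusted p ran from 4.49e-05 to 0.632 over all alternatives. Leaving out 1 library at a time gave 0 to 19 genes, with 19 without replicate 7 of 60 days, 3 and 2 without replicates 3 and 4 of 30 days and 2 without replicate 8 of 90 days. Clec7a, Dus3l, an enzyme that modifies transfer RNA, and Irf7 had the smallest p on the lower side of that step, with differences of -2.92, -2.03 and -3.63 (adjusted p = 0.154, 0.214 and 0.363). Cacybp, a calcyclin-binding protein gene, and the transcriptional corepressor gene Cbfa2t3 had the smallest p on the higher side beside Npsr1, with 1.29 and 1.76 (adjusted p = 0.363 and 0.376).

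From 60 to 90 days 3 genes passed (0.0143%), all lower at 90 days, against 2016 (9.63%) at an unadjusted p under 0.05. None met the level and naming conditions for a named gene, and they are given because they are all that passed. Serpina3g, a serine protease inhibitor of a multigene family whose members can share reads, had 12.9, 11.7, 6.70 and 8.92 at 90 days and 96.4, 319.6 and 84.2 at 60 days. Gm12195, a transcript antisense to Tbc1d9b that cannot be told apart from it without strand, had 5.97, 1.95, 0.957 and 0 and 91.3, 74.4 and 84.2, and the pseudogene Gm7972 had 26.9, 1.95, 2.87 and 7.65 and 51.4, 106 and 183. All 4 libraries of 90 days were below the 3 of 60 days for each, and the steps were -1.99, -1.68 and -1.67 (limma, adjusted p = 0.0428, 0.0181 and 0.0428). With edgeR 0 genes passed and with DESeq2 28. Leaving out 1 library at a time gave 48 genes without replicate 7 of 60 days, 0 without replicates 5, 6 or 8 of 90 days and 1 in most other cases.

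Among genes above that level, Ppic, a cyclophilin, Serpina3h, of the same family as Serpina3g, and Polr3e had the smallest p on the lower side, with differences of -3.23, -2.22 and -2.05 (adjusted p = 0.324, 0.324 and 0.324). Lmbr1, Wdr35, an intraflagellar transport protein gene, and Hcfc2 had the smallest p on the higher side, with 1.49, 1.57 and 0.97 (adjusted p = 0.324, 0.488 and 0.488). Oligodendrocyte markers had a median of -0.48 from 30 to 60 days, -1.31 from 60 to 90 days and 0.67 from 90 to 105 days. Endothelial and mural markers had -0.17, -1.11 and 0.75 over the same steps, and pan-neuronal genes -0.44, 0.85 and -0.40. The steps share the libraries of the age between them, so their opposite signs are not independent.

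From 90 to 105 days 0 genes passed (0%) with limma and edgeR and 16 with DESeq2, against 1482 (7.08%) at an unadjusted p under 0.05. Adamts1, a matrix protease gene, Prelp, a matrix proteoglycan gene, and Nde1, a dynein regulator gene, had the smallest p on the higher side, with differences of 2.29, 2.98 and 2.22. Zfp788, a zinc finger gene, Bloc1s6, a subunit of an organelle-sorting complex, and B3galt2, a galactosyltransferase gene, had the smallest p on the lower side, with -1.78, -1.40 and -1.46. All 6 had an adjusted p of 0.572. Without replicate 12 of 105 days 2 genes passed, Zfp788 and 4932438H23Rik, and without replicate 13 of that age 1, Gm27200.

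Wild-type control cells at the same ages gave 2535 genes that passed (12.1%), 703 higher (3.36%) and 1832 lower (8.75%) at late ages. That count rested on the early wild-type libraries of 60 days, of which there were 2. Without replicate 1 of that age 392 genes passed and without replicate 2 1096. When the 60-day libraries of both genotypes were left out 257 of 20355 passed, 16 higher and 241 lower. It was 4036, 1404 and 1586 without replicates 12 and 13 of 105 days and replicate 3 of 90 days. After quantile normalisation 1360 were higher and 1286 lower, with DESeq2 2795 and 1782, and with edgeR 876 and 1097. With array weights 1901 were higher and 3098 lower. Microglial markers averaged 14.3 and 13.9 on the log2 scale in the 60-day wild-type libraries, above the highest of the other 12 wild-type libraries (13.8), and the part of this in the count was not tested.

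The difference between the late minus early changes of the genotypes, Sod1G86R minus wild type, passed for 0 of 20944 genes (0%) with limma and edgeR and for 170 with DESeq2, against 3472 (16.6%) at an unadjusted p under 0.05, 2212 on the positive (10.6%) and 1260 on the negative side (6.02%). With array weights 124 passed, and without replicate 12 of 105 days of wild type 127 passed on the positive and 4 on the negative side. Without replicate 7 of 90 days of wild type 3 passed. The test of the difference itself thus passed for no gene, although 0 genes passed in Sod1G86R and 2535 in wild type.

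Oligodendrocyte markers lay on the same side in both genotypes. Their median was -1.14 in Sod1G86R and -2.54 in wild type, where 12 of 12 fell, and 11 of 12 without the 60-day libraries. Over all genes 8.75% fell in wild type with these libraries, and 241 of 20355 genes without them. The median of the differences was 1.24, with 7 of 12 at an unadjusted p under 0.05. Mog had 8598 to 36471 (median 17075) in late and 23646 to 88547 (median 40019.6) in early Sod1G86R libraries, against 4150.4 to 30469 (median 16429.7) in late and 63053 to 106932 (median 89552) in early wild-type ones. The late ranges of the genotypes overlapped almost wholly, and the early wild-type libraries reached higher. The difference between the changes of Mog was 1.22 ± 0.52 (SE) (limma, adjusted p = 0.263).

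Interferon genes had medians of -0.54 in Sod1G86R and -1.17 in wild type, where 14 of 27 fell, and endothelial and mural markers -0.73 and -1.43, with 7 of 14 fallen in wild type. Oxidative phosphorylation genes had 0.52 and 0.49, and 17 of 46 rose and 2 fell in wild type. Ribosomal protein genes had 0.45 and 0.64, and 17 of 36 rose in wild type. Without the 60-day libraries 4 of the interferon and 3 of the endothelial genes fell in wild type, as did 241 of all 20355 genes. No member of the other 2 lists passed in that fit. Only 16 of all genes rose there, so the lack of rises says little about these 2 lists.

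Many of the 39 lists, those of oligodendrocyte, endothelial and interferon genes included, had a median nearer to 0 in Sod1G86R than in wild type. The 4 that follow are among them. Cholesterol synthesis genes had a median of -0.07 in Sod1G86R and -1.21 in wild type, and -0.29 and -0.73 without the 60-day libraries. The difference between genotypes had an unadjusted p under 0.05 for 15 of 23 of them, and for 8 of 23 without the 60-day libraries. Oligodendrocyte precursor markers had -0.08 in Sod1G86R and -2.39 in wild type, and -0.53 and -2.21 without the 60-day libraries, with 7 of 8 differences at that p and 2 of 8 without these libraries. Postsynaptic genes had -0.14 in Sod1G86R and 0.67 in wild type, and -0.30 and 0.43 without the 60-day libraries, with 11 of 22 differences at that p, all negative, and 8 of 22. Astrocyte markers had 0.27 in Sod1G86R and -1.21 in wild type, and 0.36 and -0.42 without the 60-day libraries, with 7 of 12 differences at that p and 1 of 12. Over all genes 16.6% of differences were at that p with the 60-day libraries. The share without them is not given here, so the counts without them have no share to be read against.

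The single genes with the smallest p for the difference between genotypes were Rapgef3, a cAMP-activated exchange factor gene, Gtf2e1, a subunit of the general transcription factor TFIIE, and Asrgl1, an asparaginase gene, on the positive side. They differed by 3.31 ± 0.63 (SE), 2.09 ± 0.40 (SE) and 2.00 ± 0.41 (SE), each with an adjusted p of 0.121 (limma). Asrgl1 had 936 to 3700 (median 1793) in late and 997 to 1976 (median 1641) in early Sod1G86R libraries, against 882 to 3112 (median 1391) in late and 3106 to 9556 (median 4069) in early wild-type ones, where it fell by 1.83 (adjusted p = 0.000662; -1.24 and 0.0548 without the 60-day libraries). The early wild-type libraries were the highest group, above all early Sod1G86R ones, and only the top of each late group reached into their range. Plch1, a phospholipase C gene, Adcy9, an adenylate cyclase gene, and Nos1ap, an adaptor of neuronal nitric oxide synthase, were on the negative side, at -2.35, -1.20 and -1.33 (adjusted p = 0.121, 0.151 and 0.155). The changes of Sod1 and Creb3 differed by -0.29 and 0.98 (adjusted p = 0.663 and 0.176). Creb3 fell by 0.70 in wild type (limma, adjusted p = 0.0387), and without the 60-day libraries its value was -0.44 and did not pass (adjusted p = 0.396). Creb3 overlaps Tln1 and Gba2 on the other strand, and reads in the shared stretches cannot be told apart.

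**Figure D4:**
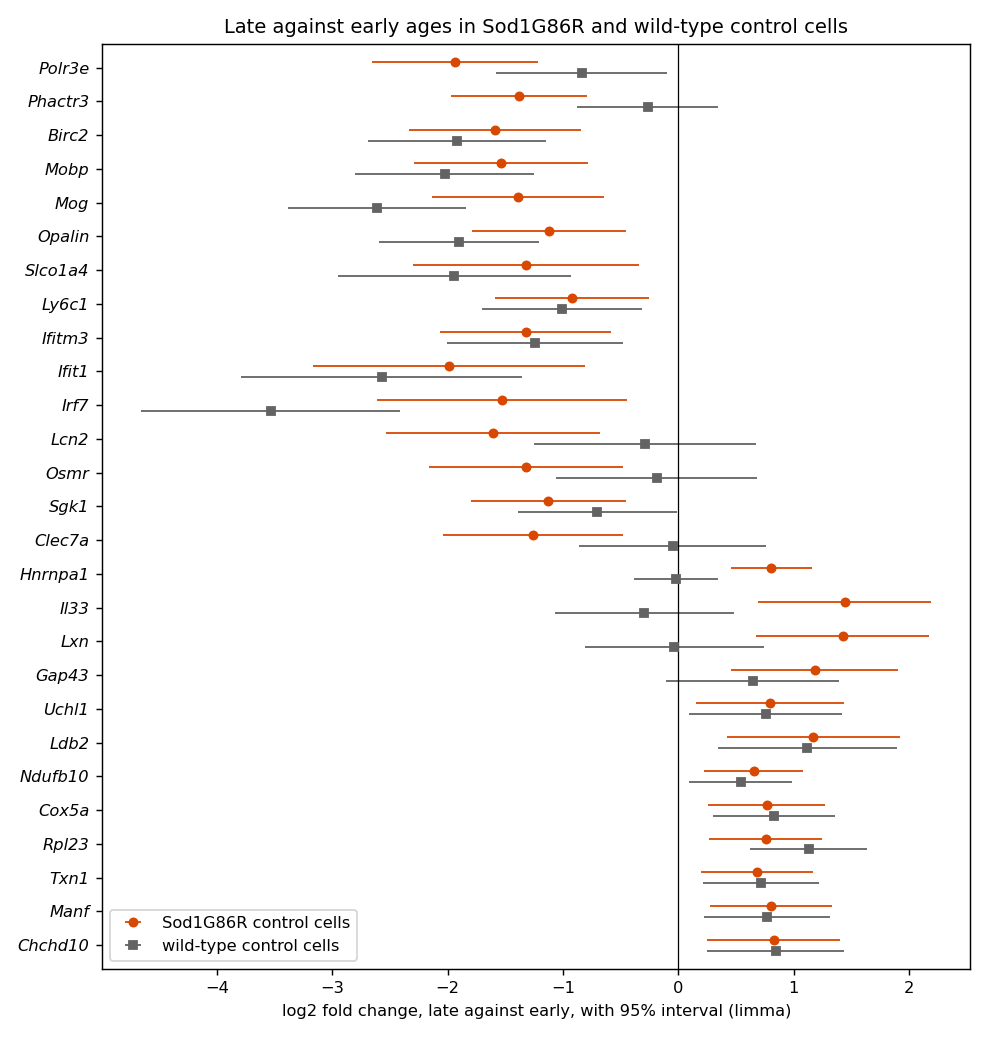
Log2 fold change of late against early ages with its 95% interval (limma) for 27 genes named in the text, chosen after their values were seen, in Sod1G86R control cells (circles) and wild-type control cells (squares). The intervals of Hnrnpa1, Il33 and Lxn lie above 0 in Sod1G86R control cells and span 0 in wild type, and those of Mobp and Birc2 lie below 0 in both. These genes were picked for their small p in Sod1G86R control cells, so where their intervals lie there is not a separate result. The test of the difference between genotypes passed for no gene (limma).

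Sod1G86R CSN at the same ages gave 0 of 22032 genes (0%) that passed with limma, with 522 (2.37%) at an unadjusted p under 0.05. The difference between control cells and CSN passed for 0 genes (0%) with limma and edgeR and for 4 with DESeq2, against 758 (3.44%) at an unadjusted p under 0.05, and for 7 without replicate 7 of the 60-day control cells. It passed for 3 and 1 without replicates 4 and 3 of the 30-day control cells, for 2 without replicate 3 of 60 days or replicate 12 of 105 days, and for 1 without replicate 6 of the 30-day CSN. Title numbers are shared by 11 pairs of control-cell and CSN libraries of 1 age, and with the animal read from them as a block 1 gene passed. Phactr3, Polr3e and Birc2 had the smallest p on the negative side and differed by -1.33 ± 0.32 (SE), -1.70 ± 0.42 (SE) and -1.68 ± 0.42 (SE), each with an adjusted p of 0.595. In CSN, Polr3e had 356 to 721 (median 593) in late and 435 to 933 (median 709.7) in early libraries and Phactr3 had 2105 to 2883 (median 2502) and 2036 to 3161 (median 2605). Their ranges in CSN overlapped, and Polr3e was lower there than in any early control-cell library. Hnrnpa1, Myh7b, a myosin heavy chain gene, and Ptger3, a prostaglandin receptor gene, were on the positive side at 0.81, 1.65 and 1.65, each with an adjusted p of 0.9997.

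Hnrnpa1 had 1878 to 3144 (median 2364) in late and 1809 to 3067 (median 2328) in early CSN, and 1999 to 2801 (median 2623) in late and 2054 to 2889.8 (median 2437) in early wild-type control cells. Of the 6 early Sod1G86R control-cell libraries, which ranged over 1173 to 2261 (median 1632), 4 were below every one of these, and the late ones, at 2486 to 4171 (median 2574), overlapped with all 4 groups. Oligodendrocyte markers had a median of 0.15 in CSN, in which Mog was at 252 to 2202 (median 1244) in late and 312 to 7206 (median 594) in early libraries and so below every early control-cell library. Interferon genes had a median of -0.02, oxidative phosphorylation genes 0.26 and ribosomal protein genes 0.12 in CSN.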

How the data were processed

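The files hold normalised read counts per gene, deposited by the authors as a signal that is a whole multiple of 1 step in each library (method of normalisation: not given in the sources used here). Per the labels and the series' design text, cDNA was made with SMART-Seq v4 (11 cycles of amplification), libraries were made by tagmentation (12 cycles) and sequenced as paired reads of 50 bases on a HiSeq 4000, and reads were mapped to GRCm38 with STAR 2.7.0 and Ensembl 87 and counted per gene. Dividing by the step gave whole reads for 100% of values within 0.001, with 22.2 to 64.2 M reads per library, so whole reads were recovered. The submitters' processing notes also name edgeR, without a role.

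Values were analysed as log2(value + 34.6), with a pseudocount of 1 ppm of the median library total, for genes at or above it in at least 3 libraries. limma 3.58.1 (R 4.3.3; trended and robust, 1 coefficient per group, Benjamini-Hochberg adjustment over all genes tested) was fitted to the 28 control-cell libraries (20944 genes), and to all 57 libraries for comparisons with CSN (22032 genes). Recovered reads were also tested with edgeR 4.0.16 and DESeq2 1.42.0, and alternatives included other pseudocounts, filters, scalings, weights, covariates, a replicate block and leaving out each library. Adding the 57-library fit, the fits without the 60-day libraries, the transcript-length covariate and all alternatives for the wild-type count was decided after seeing the data. Library measures were compared by a two-sided exact permutation test (scipy 1.17.1). The tests were checked on simulated data. Transcript lengths and coordinates come from GENCODE M21 (GRCm38). Groups were taken from the labels.

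The members and gene lists were chosen with earlier results of these data known. Named genes were the 3 with the smallest p in each direction where fewer than 3 passed, among genes that had a gene name and reached a group mean of 346, with Sod1 and Creb3 in every comparison and up to 4 members with the smallest p from each list described, of which some are not reported here. Genes outside this rule are named for their known role or because the count they belong to is small.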

Additional observations from a re-analysis of the deposited data

Results flagged for a closer look

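Within the groups of 4 late Sod1G86R control-cell libraries, 26 of 228 sets of 4 values had 1 library set apart from the other 3 by Dixon's criterion (a gap over 0.829 of the range). For normally distributed values chance flags about 1 in 20 groups. Gene values entered as normalised reads without a log scale, for which that rate was not checked, so the count is not read as an excess. Values of 1 library are also not independent of each other.

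At 90 days replicate 8 stood apart most often. It was high for Clec7a (172 normalised reads against 5.84 to 15.9 in the other 3), Irf7 (80.3 against 4.87 to 8.61), Ppic (85.4 against 5.74 to 8.96) and Ddit4 (44.6 against 12.9 to 16.6). It was also high for Gsta4 (11603 against 3407.5 to 4498), Uchl1 (21597 against 11942 to 12649) and Wdr35 (2661 against 1438 to 1623), and low for the mean log2 level of corticospinal and deep-layer markers (9.39 against 9.54 at the lowest of the others).

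Replicate 5 of 90 days was high for Hnrnpa1 (4171 against 2516 to 2555), Il33 (4771 against 2390.4 to 2766), Ifitm3 (847 against 536 to 573) and Tsc22d3 (7137 against 4742 to 5124), and for the mean log2 level of oligodendrocyte precursor markers (9.24 against 7.80 to 7.86). Replicate 6 was high for Prelp (134 against 15.3 to 28.9) and Tubb3 (5827 against 4358 to 4496). Replicate 3 was high for Ubqln2 (3303 against 2117 to 2279) and had the fewest reads (31.5 M against 35.7 to 36.2 M).

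At 105 days replicate 12 was high for Lxn (7388 against 4399 to 4892), B3galt2 (1433 against 508 to 566), Gsta4 (7192 against 3372 to 3494) and the mean log2 level of upper-layer markers (10.6 against 10.3 at most). Replicate 13 was high for Lcn2 (7.47 with the other 3 at 0) and Serping1 (259 against 11.3 to 16.8), and low for Uchl1 (6235 against 11749 to 12748) and the mean log2 level of glutamatergic markers (11.0 against 11.6 to 11.7). Replicate 9 was high for Ddit4 (81.3 against 26.3 to 28.3).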

How the results depend on the processing

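The count of 0 genes for late against early Sod1G86R control cells became 52 with DESeq2, 43 with all 57 libraries in the fit, 8 without the 60-day libraries, 7 with array weights and 1 with glial markers as a covariate, and it ran from 0 to 14 when 1 library was left out. It was 0 under the other alternatives run. Of the 70 genes followed in this comparison, none changed direction under any of the alternatives. Genes named outside the naming rule, such as Gfap, Bcas2, Pfdn1 and Katna1, were not followed. For the difference between genotypes the count on the positive side was 87 with DESeq2, 112 with array weights, 1 with detected genes as a covariate and 0 to 127 without 1 library, and on the negative side 83 with DESeq2, 12 with array weights and 0 to 4 without 1 library; a fit of the groups compared alone is the same fit there. For the difference between control cells and CSN it was 4 with DESeq2, 2 with array weights, 1 with quantile normalisation, 1 with the transcript length covariate, 1 with the animal as replicate block and 0 to 7 without 1 library. From 30 to 60 days it was 15 with DESeq2, 2 without the filter, 0 with edgeR or the groups compared alone, and 0 to 19 without 1 library. From 60 to 90 days it was 28 with DESeq2, 5 without the filter, 1 with quantile normalisation, 0 with edgeR, a pseudocount of 8.65 or the groups compared alone, and 0 to 48 without 1 library. From 90 to 105 days it was 16 with DESeq2, 1 without the filter and 0 to 2 without 1 library. The cause of these changes was not tested.

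These values changed sign, and none had passed a test. Of list medians described, those of GABAergic, disease-associated microglia, microglia, axon growth and ALS-linked genes were -0.12, 0.07, 0.21, -0.02 and -0.11 without the 60-day libraries. With glial markers as a covariate oligodendrocyte precursors had 0.26, microglia 0.28, upper-layer neurons -0.02 and cholesterol synthesis 0.01. With the library number precursors had 0.08, the CREB3 family -0.09 and ALS-linked genes -0.09. With transcript length the CREB3 family had -0.11, antioxidant genes -0.04 and ALS-linked genes -0.005. After quantile normalisation the unfolded protein response had -0.03, the CREB3 family -0.06 and ALS-linked genes -0.02. Upper-layer neurons had -0.01 with TMM scaling, and precursors 0.05 without replicate 7 of 60 days. The CREB3 family had -0.005 with edgeR and -0.0003 with DESeq2. The genotype difference of Sod1 was 0.0133 without the 60-day libraries, and the step of Creb3 with quantile normalisation was -0.0313 from 60 to 90 days and 0.0909 from 90 to 105 days. Without 1 library the step from 30 to 60 days ran from -0.112 to 0.449 for Sod1 and from -0.0447 to 0.289 for Creb3, and that of Creb3 from 90 to 105 days from -0.262 to 0.0187. With medians in place of means, the late minus early difference was -0.234 percentage points for the mitochondrial share, and on the log2 scale 0.167 for oligodendrocyte precursors, -0.0936 for microglia, -0.0157 for upper-layer neurons and 0.169 for immediate early genes. Without 1 library these ran from -0.205 to 0.181, -0.185 to 0.174, -0.314 to 0.210, -0.00625 to 0.125 and -0.196 to 0.0949. The number of detected genes ran from -1469 to 397 and the share of reads in olfactory, vomeronasal and taste receptor genes from -0.0132 to 0.000947 percentage points.

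The replicate number of the labels, shared by 4 same-numbered pairs of control-cell groups with residual correlations of 0.0240 to 0.184, marks no stated batch, and with it as a replicate block the counts were 0, 1 and 3 for late against early, 30 to 60 and 60 to 90 days, as without it. The 11 pairs of control-cell and CSN libraries with the same age and number had residual correlations of -0.318 to 0.282. Groups of 2 to 4 libraries per age limit what the steps can show, and genes near 34.6 normalised reads have understated folds. Strand is not marked, and Sod1, Creb3, Irf7, Nde1 and B3galt2, among other named genes, overlap a gene on the other strand.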
